A study of Mus musculus with 15 samples.

Results

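Regions with an H3K27Me3 peak in the islet lists of all 3 diets, away from promoters and without H3K27Ac, were examined. Peaks of the 3 H3K27Me3 lists were joined where they overlapped by at least 1 bp on chromosomes 1 to 19, which gave 25197 regions. Of these, 8598 held a peak in all 3 diets and 6533 of the latter were shorter than 2000 bp. A window of 1 kb either side of the start sites of protein-coding genes was avoided by 5830, and 3086 of those overlapped no H3K27Ac peak of any diet. These 3086 regions are the members. They were chosen by the presence of peaks, so that presence in each diet, the length and the absence of H3K27Ac are the rule and not a result.

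The islets came from male CBA mice on a regular diet (RD), a high-fat diet (HFD) or the high-fat diet with O304 (HFD-O304), a small molecule that activates AMP-activated protein kinase. No allele was altered. The labels list 12 ChIP samples, 2 for each mark and diet, and the islets were pooled before chromatin was prepared. The authors merged both replicates before calling peaks, so each mark and diet has 1 list, differences between diets carry no replicate error, and none could be tested. Islets contain beta cells together with other endocrine and non-endocrine cells, and the marks cannot be assigned to a cell type. H3K27Ac lay at the start sites of 24, 26 and 27 of 38 genes of beta cell identity in RD, HFD and HFD-O304, at 3, 3 and 4 of 33 exocrine genes and at 0 of 26 genes of endothelial, immune and stromal cells in each diet.

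H3K27Me3 is deposited by Polycomb repressive complexes. In mammals these complexes typically act at CpG-rich sequence near genes of development that a differentiated cell keeps silent, and wide H3K27Me3 domains form over such genes. Interspersed and tandem repeats are kept silent mainly by other marks, but H3K27Me3 has also been described on some of them. Sequences that occur many times in a genome are hard to score in ChIP-seq, because a short read from one copy fits the others equally well. The sequence of the members was therefore read first, and the members were then divided by it.

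Most members were repeats. At least 50% of the bases were repeat-masked in the GRCm38 reference in 2575 members, or 83.4% (95% Wilson interval 82.1 to 84.7), and 2147 were masked from end to end. Uniqueness was measured with words of 50 bases, each counted over the whole reference on both strands. Fewer than 50% of the words were found once in 2734 members, or 88.6% (87.4 to 89.7). Repeats were also most of all 25197 joined H3K27Me3 regions, with 65.1% at least 50% masked and 70.2% of such low uniqueness. In the median member 4.47% of the words were found once, and the median word occurred 338 times. No word was unique in 1089 members, whereas every word was unique in 168. The intervals treat regions as independent, which copies of a repeat are not, and cover counting error only. The reference is of the C57BL/6J strain and not of CBA. The peaks were called without a control, and whether members of high copy number also stand out in input chromatin was not tested.

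The members fell into 5 groups by sequence. A first group of 214 members had under 50% masked bases and at least 90% unique words, and is called the unique-sequence group. In 1210 others, words of 14 bases recurred at a spacing of 190 to 220 bp, which is a tandem of long units (the long tandem group). In 542 the spacing was shorter (the short tandem group). A further 1011 had no such tandem and at least 50% masked bases, and 109 remained. Sequences of each kind follow, since the groups differ more in their letters than in their scores. All coordinates are GRCm38.

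The first set shows a single unit of the 3 most frequent long tandems, of 212, 208 and 214 bp, each from a strong member that holds a whole unit. Capitals mark the 30-base word that most members of that spacing share.
212-bp unit, chr14:26704470-26704681 (plus strand): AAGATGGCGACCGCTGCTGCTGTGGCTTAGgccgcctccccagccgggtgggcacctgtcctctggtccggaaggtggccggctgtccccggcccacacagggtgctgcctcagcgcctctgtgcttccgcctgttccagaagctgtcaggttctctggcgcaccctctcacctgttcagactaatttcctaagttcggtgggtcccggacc
208-bp unit, chr5:133321985-133322192 (plus strand): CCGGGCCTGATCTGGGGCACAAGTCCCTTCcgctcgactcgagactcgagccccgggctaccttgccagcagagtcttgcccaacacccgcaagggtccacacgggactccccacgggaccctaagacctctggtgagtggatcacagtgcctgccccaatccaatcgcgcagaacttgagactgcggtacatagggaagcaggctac
214-bp unit, chr8:15442419-15442632 (plus strand): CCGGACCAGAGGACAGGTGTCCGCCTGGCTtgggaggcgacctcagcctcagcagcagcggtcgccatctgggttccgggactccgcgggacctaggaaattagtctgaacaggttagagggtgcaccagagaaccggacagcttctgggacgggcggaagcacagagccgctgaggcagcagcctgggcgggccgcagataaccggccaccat

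The second set shows a short tandem, from the strongest member built on the hexamer AGAGGC (read as its complement on this strand). Capitals mark bases in an uninterrupted tandem of period 6.
AGAGGC tandem, chr10:113920118-113920417 (plus strand): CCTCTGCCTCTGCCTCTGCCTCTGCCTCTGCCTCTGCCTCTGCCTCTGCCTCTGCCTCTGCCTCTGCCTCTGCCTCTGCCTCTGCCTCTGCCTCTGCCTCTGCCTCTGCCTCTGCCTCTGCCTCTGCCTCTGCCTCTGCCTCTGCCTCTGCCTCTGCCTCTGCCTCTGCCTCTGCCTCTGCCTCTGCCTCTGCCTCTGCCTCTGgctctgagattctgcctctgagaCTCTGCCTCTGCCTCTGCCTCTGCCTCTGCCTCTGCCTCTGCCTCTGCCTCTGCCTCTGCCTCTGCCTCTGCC

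The third set shows the middle of 4 leading unique-sequence members, with CpG in capitals.
near Hic2, chr16:17222257-17222516 (plus strand): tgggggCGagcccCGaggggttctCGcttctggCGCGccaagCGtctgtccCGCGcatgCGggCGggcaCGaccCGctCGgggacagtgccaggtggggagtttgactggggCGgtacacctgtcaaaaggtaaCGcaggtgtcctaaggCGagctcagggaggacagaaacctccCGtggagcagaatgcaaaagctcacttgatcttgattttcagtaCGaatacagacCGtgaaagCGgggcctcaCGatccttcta
near Fxr1, chr3:33970086-33970354 (plus strand): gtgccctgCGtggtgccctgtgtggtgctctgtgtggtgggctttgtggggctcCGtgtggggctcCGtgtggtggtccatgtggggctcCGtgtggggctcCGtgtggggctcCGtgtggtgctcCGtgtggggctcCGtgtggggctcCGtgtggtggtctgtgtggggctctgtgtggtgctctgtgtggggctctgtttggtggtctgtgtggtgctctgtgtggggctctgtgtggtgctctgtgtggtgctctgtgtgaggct
intron of Pax9, chr12:56700057-56700356 (plus strand): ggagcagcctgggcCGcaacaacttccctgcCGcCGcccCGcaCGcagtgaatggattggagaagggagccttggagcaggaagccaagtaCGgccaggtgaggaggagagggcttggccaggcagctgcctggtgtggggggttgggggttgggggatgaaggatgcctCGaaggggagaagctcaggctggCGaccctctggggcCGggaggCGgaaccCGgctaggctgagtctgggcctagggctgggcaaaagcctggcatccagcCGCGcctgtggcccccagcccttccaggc
near Nr2f1, chr13:78179469-78179768 (plus strand): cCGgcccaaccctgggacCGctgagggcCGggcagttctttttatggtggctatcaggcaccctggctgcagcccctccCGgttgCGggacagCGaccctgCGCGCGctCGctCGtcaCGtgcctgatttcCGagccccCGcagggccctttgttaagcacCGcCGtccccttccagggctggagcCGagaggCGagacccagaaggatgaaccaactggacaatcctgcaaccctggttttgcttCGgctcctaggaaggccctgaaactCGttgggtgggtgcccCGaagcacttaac
The Hic2, Pax9 and Nr2f1 stretches hold 21, 13 and 21 CpG. The intron label of Pax9 holds for the midpoint of the member, and the printed stretch may reach into an exon. The stretch near Fxr1 holds 9 and consists of degenerate copies of a short GT-rich phrase, although each of its 50-base words was unique. The stretches of Hic2 and Fxr1 are whole members, of 260 and 269 bp.

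**Figure D1:**
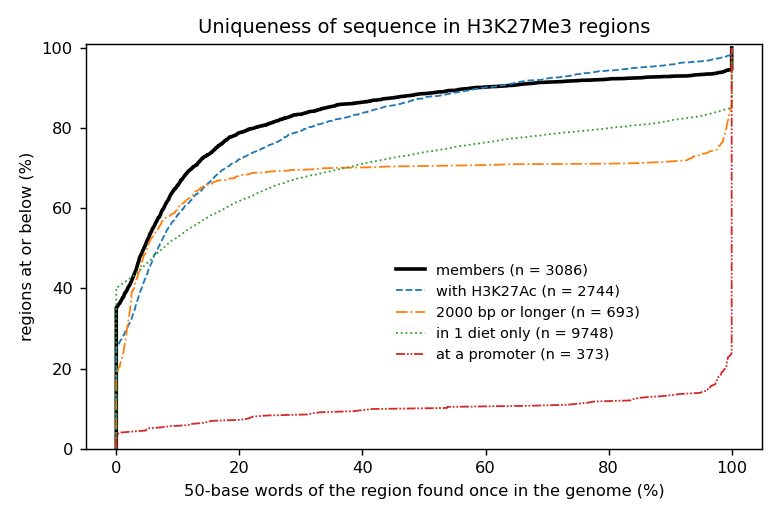
Share of the 50-base words of a region that were found once in the genome (x axis, percent) against the share of regions at or below that value (y axis, percent), for the 3086 members and 4 classes that break the rule in 1 criterion. Members and regions with H3K27Ac lie at the left, with medians of 4.47% and 6.75%, and promoter regions at the right, with a median of 100%.

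To see where the members differ from other H3K27Me3 regions, classes that meet the rule except for 1 criterion were set beside them. Regions of the same kind at promoters numbered 373, and 21 of those were mostly repeat-masked (5.63%), 77.8 percentage points fewer than among the members (95% Newcombe interval 74.7 to 80.1). Among the 9748 regions with a peak in 1 diet only, 71.9% were mostly masked, a difference of 11.6 points (9.96 to 13.1), and among the 693 regions of 2000 bp or longer 65.1% were (18.4 points, 14.6 to 22.2). The 2744 regions that overlapped H3K27Ac were alike in this respect, at 82.2%, with a difference of 1.23 points and an interval that includes 0 (-0.711 to 3.17). Low uniqueness followed the same order, with 9.92% at promoters, 70.4% of the long regions, 73.9% in 1 diet only and 87.5% with H3K27Ac. Hence repeat content separated the members from promoters and from regions of 1 diet, and did not separate them from regions with the active mark.

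The long tandem was frequent among the members and among like regions with H3K27Ac, and rare in the other classes. It made up 1210 of the 3086 members, or 39.2% (37.5 to 40.9), and 128 of 9748 regions in 1 diet only, or 1.31%, a difference of 37.9 points (36.2 to 39.6). A tandem of such units can be called only in a region that is long enough, and the median length was 789 bp for the members and 366 bp for regions in 1 diet only. Among regions of at least 500 bp, a limit chosen after the values were seen, 1064 of 2534 members (42.0%) and 40 of 3456 regions in 1 diet only (1.16%) had it, and among those of at least 1000 bp 19.4% and 0.264%. Presence in all 3 diets did not go with the long tandem by itself, since it made up 5 of 373 regions at promoters (1.34%) and 2.31% of the regions of 2000 bp or longer. Regions with H3K27Ac had it more often than the members did, at 52.6%, a difference of -13.4 points (-15.9 to -10.8). CpG-island-like sequence, with a GC content of at least 50%, an observed to expected CpG ratio of at least 0.6 and 200 bp or more, made up 12.0% of the members and 50.9% of the promoter regions.

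The spacings of the long tandem group were not spread evenly. A spacing of 212 bp was found in 451 members, 208 bp in 390 and 214 bp in 149, and 201, 204 and 206 bp in 63, 50 and 49. The units repeat with little change within a member, with 97.0% of bases equal to the base 1 unit further on in the 212-bp member shown, 97.4% in the 208-bp member and 80.2% in the 214-bp member. Among the 451 members of the 212-bp spacing all 451 held the capital word shown, as did 382 of 390 and 138 of 149 of the other spacings. Counting every member irrespective of spacing, 505, 491 and 181 held these words. The group was GC-rich (median 61.6%) with a median of 36 CpG a member and an observed to expected ratio of 0.54, was masked from end to end in the median member, and its median word occurred 1176 times. Intergenic members numbered 924, the other 286 lay in introns and 0 in exons of protein-coding genes.

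**Figure D2:**
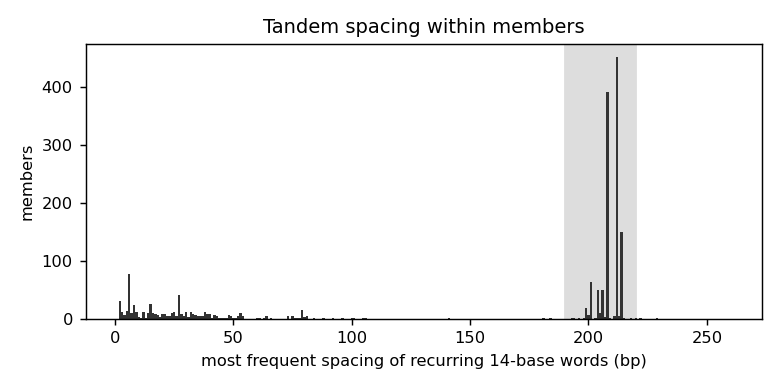
Number of members (y axis) by the most frequent spacing in bp (x axis) of 14-base words that recur within the member, for members with at least 40 such words and a spacing of up to 260 bp. The shaded band from 190 to 220 bp is the long tandem group, with peaks of 390 members at 208 bp and 451 at 212 bp, and the highest bar on the left is 78 members at 6 bp.

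The same words occur at many other places of the genome, and these were followed. On chromosomes 1 to 19 the word of the 212-bp unit occurred 5130 times at 1738 places, copies within 2000 bp of each other being 1 place. Of those places 506 (29.1%) were in members and 1527 (87.9%) in an H3K27Me3 region of any kind. Regions with a peak in all 3 diets held 1261 of the 1738 places (72.6%). At the same time 754 places (43.4%) touched an H3K27Ac peak. The word of the 208-bp unit had 1702 places, with 499 (29.3%) in members, 1390 (81.7%) in any H3K27Me3 region and 546 (32.1%) under H3K27Ac. That of the 214-bp unit had 1124, with 185 (16.5%), 610 (54.3%) and 135 (12.0%). Members and places with H3K27Ac thus share the same words, and reads from one cannot be told apart from reads from the other where the word is all that was read.

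Members shared longer stretches beyond the tandems. A word of 50 bases was common to at least 1 other member in 2549 of them, or 82.6% (81.2 to 83.9). Taking in turn the word that covered most of the members not yet covered, 8 words accounted for 1671 members, or 54.1%. Words 1, 2, 4 and 5, with 471, 457, 141 and 110 members, came from long tandems. Word 6 was the AGAGGC tandem, with 81. Words 3, 7 and 8, with 261, 79 and 71 members, belonged to no tandem and are given here as the most common sequences of the masked group, each from a strong member.
word 3, chr13:29884920-29884969 (plus strand): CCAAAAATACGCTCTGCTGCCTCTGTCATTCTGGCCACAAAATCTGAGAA
word 7, chr3:158634670-158634719 (plus strand): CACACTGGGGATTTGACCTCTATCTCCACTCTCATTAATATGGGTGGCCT
word 8, chr11:43238143-43238192 (plus strand): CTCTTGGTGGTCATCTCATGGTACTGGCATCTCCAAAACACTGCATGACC
These words were found 1506, 2411 and 982 times in the reference. Members with word 3 were long, with a median of 1464 bp, and had a GC content of 52.3%. Their median folds were 2.78, 3.02 and 3.09 (RD, HFD and HFD-O304), close to the lowest fold that was called. No repeat annotation was used, so the families are not named.

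The strength of the members was then compared within each list. The authors' fold is the pileup over a uniform background, and the lowest fold of a listed peak was 2.53, 2.76 and 2.69 (RD, HFD and HFD-O304). Most members lay just above, with median folds of 2.99, 3.21 and 3.35 (RD, HFD and HFD-O304). The weakest of a member's 3 -log10 q values was at least 5 in 594 members, or 19.2% (17.9 to 20.7), and at least 10 in 51. Folds exceeded 5 in every diet in 31 members and 10 in every diet in 10. Long tandem members had higher median folds (3.22, 3.35 and 3.63 in RD, HFD and HFD-O304) than unique-sequence members (2.76, 3.15 and 3.13).

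**Figure D3:**
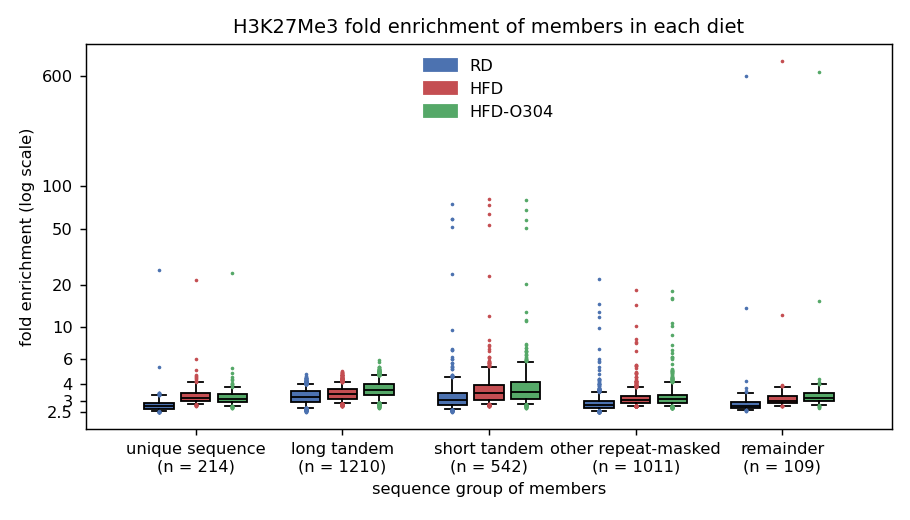
Fold enrichment of H3K27Me3 as given by the authors (y axis, log scale) for the 5 sequence groups (x axis) in each diet, 1 list a diet. Boxes span the quartiles with the median as a line, whiskers run from the 5th to the 95th percentile and points are members beyond them. The medians lie between 2.76 and 3.63, and the highest point of each diet, from 605 to 764, is a region on chromosome 12.

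A single member stood far above the others. It was an intergenic region of 1081 bp at chr12:3109862-3110942, with folds of 605, 764 and 648 (RD, HFD and HFD-O304). It lies 110 kb from the first sequenced base of chromosome 12, next to the unsequenced centromeric end, and 199 kb from the start site of Rab10. Whether this place also stands out in input chromatin was not tested either.

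Among the 10 strongest members 4 more are described. A unique-sequence member of 260 bp at chr16:17222257-17222516, 11.1 kb from the start site of Hic2, a transcriptional repressor, was at rank 6 and had folds of 25.6, 21.6 and 24.3 (RD, HFD and HFD-O304). A masked region of 1156 bp near Myl12b on chromosome 17 had 22.1, 18.5 and 18.1, a masked region of 232 bp on chromosome 18 had 14.6, 14.5 and 16.2, and a region of 254 bp near Chrm3 on chromosome 13, with 31 CpG, had 13.8, 12.3 and 15.5. In none of the 10 strongest members did the lists of the 3 diets differ by more than 1.3 times in fold.

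The 214 unique-sequence members lay close to genes, and more of them were CpG-island-like than of the other members. Their median length was 1234 bp with 48 CpG and an observed to expected ratio of 0.51, which is not above the 0.54 of the long tandem group, and 67 of them, or 31.3% (25.5 to 37.8), were CpG-island-like, against 10.6% of the other members, a difference of 20.7 points (14.8 to 27.3). The nearest start site of a protein-coding gene was at a median of 8.44 kb, against 74.3 kb for the other members. Like regions of unique sequence were near genes too, at 8.13 kb for those of 2000 bp or longer and 20.8 kb for those in 1 diet only. A total of 137 lay between genes, 44 in introns and 33 in exons. Exons held 15.4% of the unique-sequence members and 0.418% of the others. They held 7.77% of unique-sequence regions in 1 diet only and 7.14% of those of 2000 bp or longer. Start sites of genes that are not protein-coding, which the rule did not exclude, were within 1 kb of 37 of them, or 17.3%, and of 136 of all members, or 4.41%.

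A larger share of the unique-sequence members than of the other members together lay near wide H3K27Me3 regions. An H3K27Me3 region of 2000 bp or more lay within 10 kb of 94 of the 214, or 43.9% (37.4 to 50.6), and of 181 of 2872 other members, or 6.30%, a difference of 37.6 points (31.1 to 44.4). The difference also held against unique-sequence regions seen in 1 diet only, of which 21.1% lay so near (22.8 points, 16.0 to 29.8), and against unique-sequence regions at promoters (9.57%; 34.4 points, 26.9 to 41.6). Long tandem members were far from such regions, with 8 of 1210 within 10 kb and a median distance of 618 kb, as compared to 13.2 kb for the unique-sequence members. The 109 remaining members, whose median word occurred 4 times, had wide regions near them at 43.1%, and 52 of them were on chromosomes 13, 4 and 14.

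**Figure D4:**
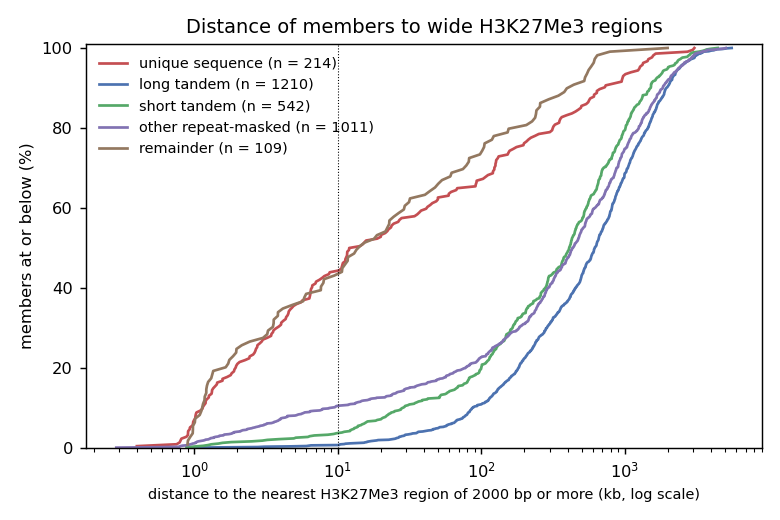
Distance in kb (x axis, log scale) from a member to the nearest H3K27Me3 region of 2000 bp or more, against the share of members of a group at or below it (y axis, percent). The dotted line marks 10 kb, where the unique-sequence curve stands at 43.9% and the long tandem curve at 0.661%.

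Genes of development were the nearest genes of many unique-sequence members. Among 139 developmental transcription factors, 38 were the nearest protein-coding gene of such a member, or 27.3%, where the share over all 20780 protein-coding genes was 0.934%. These 38 included Foxa1, Gata4, Hoxa13, Nkx2-5, Otx2, Pax2, Pax9, Tbx18 and Tcf21. Counted by member, 47 of 214 unique-sequence members, or 22.0%, had such a gene nearest. Of the other members 43 of 2872 did, a difference of 20.5 points (15.4 to 26.5). The share was 11.6% for unique-sequence regions of 1 diet only (10.4 points, 5.07 to 16.6) and 35.7% for unique-sequence regions of 2000 bp or longer, above the members by 13.8 points (the difference of members minus long regions was -13.8, -22.3 to -4.99). Genes in sparsely populated stretches are nearest to more regions irrespective of function, so the count within gene bodies is given as well. It was 11 of 139 factors (7.91%), against 0.356% of all genes.

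The leading unique-sequence members are described by gene. Pax9, a factor of the pharyngeal pouches and of teeth, held a member of 849 bp at chr12:56699783-56700631, with its midpoint in an intron. It lay 983 bp from a wide region and had folds of 3.41, 4.42 and 4.29 (RD, HFD and HFD-O304). Nr2f1, an orphan nuclear receptor of the nervous system, had a member of 864 bp 10.4 kb from its start site, with folds of 3.32, 4.55 and 3.81. Nr2f2, its close relative, had a member 3.75 kb away with 3.40, 4.09 and 3.33. In all 3 the RD list was the lowest or within 0.1 of the lowest.

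Tfap2a, a factor of the neural crest, held a member of 533 bp in an exon, with folds of 3.24, 3.91 and 3.81 (RD, HFD and HFD-O304). Sp9, a zinc finger factor of the forebrain, held an intronic member 906 bp from a wide region, with 3.19, 3.59 and 3.76. Pax2, a factor of the kidney and midbrain, had a member of 1743 bp at 35.1 kb, with 3.26, 3.60 and 3.34. Neurog2, a proneural factor, had one at 6.80 kb with 3.35, 3.72 and 3.37. Genes outside the list were among the leaders too. Kcnk15, a potassium channel, held an intronic member with 3.23, 3.65 and 3.37, and Slc17a6, a vesicular glutamate transporter of neurons, held one with 3.16, 3.50 and 3.49. In each of these 6 members RD had the lowest fold. That is not particular to them, since the normalised pileup of HFD was above that of RD in 207 of the 214 unique-sequence members. For HFD-O304 over RD it was so in 203. The lowest fold that was called was also lowest in RD (2.53, against 2.76 in HFD and 2.69 in HFD-O304).

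Several genes had more than 1 unique-sequence member, a count looked up after the values were seen. Tcf21, a factor of mesenchymal cells, was nearest to 3. En2, Foxa1, Foxb1, Gdf6, Hoxa13, Lhx4, Mef2c, Nkx2-5, Nr2f1, Pax2, Pax9, Tfap2a and Zfhx4 were nearest to 2 each, as were Adgrb2, Cdkn1c, Dcakd, Fbxo8 and Polg, which are not developmental factors.

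Ligands of development were nearest to unique-sequence members in 6 of 55 genes, or 10.9%, namely Bmp4, Bmp7, Fgf8, Gdf10, Gdf6 and Gdf7, beside 0.934% of all protein-coding genes. In the gene body 4 of 55 held one, beside 0.356%. The exon of Gdf7, a ligand of the BMP family, held a member with folds of 2.73, 3.16 and 3.25 (RD, HFD and HFD-O304). Exons of Gdf10 and Gdf6 held members with 2.79, 3.09 and 2.84 and with 2.64, 3.01 and 3.40. Fgf8, a growth factor of early patterning, had a member 2097 bp from its start site with 2.63, 3.21 and 3.07. These folds lie near the lowest that was called in each list.

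Genes of beta cells had members nearest to them at a share near that of all genes. Of 38 genes of beta cell identity and hormones 5 were the nearest gene of any member (Foxo1, Ins1, Ins2, Isl1 and Nkx6-1), or 13.2%, beside 10.3% of all protein-coding genes. None of these members was of the unique-sequence group, and 0 of the 38 held a member in the gene body, where the share over all genes was 3.1%. Among 27 genes that are silenced in beta cells or rise in dedifferentiation, 7 were nearest to a member, or 25.9%, beside 10.3% of all genes. These were Aldh1a3, Cxcl12, Ldha, Lmo4, Maf, Myc and Sox9. In the gene body 1 of the 27 held a member, or 3.70%, beside 3.1% of all genes. The 4 strongest members nearest to these genes were fully masked. They lay 83.4 kb from the start site of Aldh1a3, 147 and 534 kb from Myc and 770 kb from Sox9. Only the member at Lmo4, an adaptor protein, was of the unique-sequence group. It lay in an intron at 2.92 kb from the start site with folds of 3.05, 3.14 and 3.67 in RD, HFD and HFD-O304. Exocrine genes were nearest in 3 of 33, genes of other islet cell types in 1 of 26, and genes of Polycomb and H3K27 enzymes in 2 of 30 (Jarid2 and Kdm2b).

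Neuronal adhesion and synapse genes were frequent hosts, without any unique-sequence member. Of 86 such genes 46 held a member in the gene body, or 53.5%, beside 3.1% of all protein-coding genes, and 72 were nearest to one, or 83.7%, beside 10.3%. Their median length was 739 kb, against 17.6 kb for all protein-coding genes. Per Mb of gene body they had 1.07 members, against 0.787 over all protein-coding genes and 1.25 over chromosomes 1 to 19 as a whole. The number per Mb was thus above that of all gene bodies and below that of the chromosomes as a whole. Olfactory, vomeronasal and taste receptor genes were nearest in 112 of 1505 and zinc finger protein genes in 47 of 388, or 7.44% and 12.1%, beside the same 10.3% of all genes.

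Over the genome the members lay mostly between genes and apart from each other. Intergenic sequence held 2305, or 74.7% (73.1 to 76.2), introns 736 and exons 45. Of all 25197 joined H3K27Me3 regions, which include those at start sites, 65.5% were intergenic. Of regions in 1 diet only 72.5% were, 2.17 points below the members (0.381 to 3.92). The intergenic share was 5.38 points above that of regions with H3K27Ac (3.07 to 7.69) and 5.68 points below that of regions of 2000 bp or longer (the difference was -5.68, -8.88 to -2.22). The start site of the nearest protein-coding gene was at a median of 65.1 kb, and it was beyond 100 kb for 1280 members. Another member lay within 10 kb of 218, and an H3K27Ac peak within 10 kb of 406 and within 1 kb of 13. Chromosomes 13 and 7 had most members for their length, at 1.53 and 1.49 a Mb, and chromosome 19 had fewest, at 0.879. Chromosome 19 still held 10 unique-sequence members of 54.

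Finally the diets were set side by side, as a description of 3 lists. Pileup was divided by the number of kept fragments, which numbered 74870300 (RD), 54166902 (HFD) and 57324419 (HFD-O304). The median ratio over the members was 1.14 for HFD over RD, 1.01 for HFD-O304 over HFD and 1.15 for HFD-O304 over RD. Over all 8598 regions with a peak in the 3 diets it was 1.14, 1.00 and 1.15, so that the members followed the rest. The lowest normalised pileup of a listed peak was itself 1.15 times that of RD in HFD and 1.09 times that of RD in HFD-O304. In HFD-O304 it was 0.945 times that of HFD. Members lie near this limit, and a higher or lower pileup cannot be told apart from a higher or lower limit for them.

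The groups of members differed in their median ratios between the lists. For HFD over RD the median ratio was 1.22 in the unique-sequence group (95% interval of the median over regions 1.20 to 1.23), 1.17 in the short tandem group and 1.10 in the long tandem group (1.09 to 1.12). Such intervals take regions as independent and, with 1 list a diet, hold no replicate error, so no difference between diets is tested by them. HFD exceeded RD in 207 of 214 unique-sequence members and in 939 of 1210 long tandem members. For HFD-O304 over HFD the order was the opposite, with 0.94 (0.931 to 0.961) in the unique-sequence group and 1.04 (1.03 to 1.05) in the long tandem group. HFD-O304 was above HFD in 62 of the 214 and in 776 of the 1210. The lowest listed pileup had a ratio of 0.945 for HFD-O304 over HFD, close to the unique-sequence median. Whether that limit gave the ratio was not tested. Regions of like sequence that are not members gave similar ratios, with 1.23 and 0.951 for 1543 unique-sequence regions of all 3 diets and 1.07 and 1.07 for 1555 long tandem regions. For HFD-O304 over RD the groups lay close together, at 1.17 for unique-sequence and 1.16 for long tandem members.

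**Figure D5:**
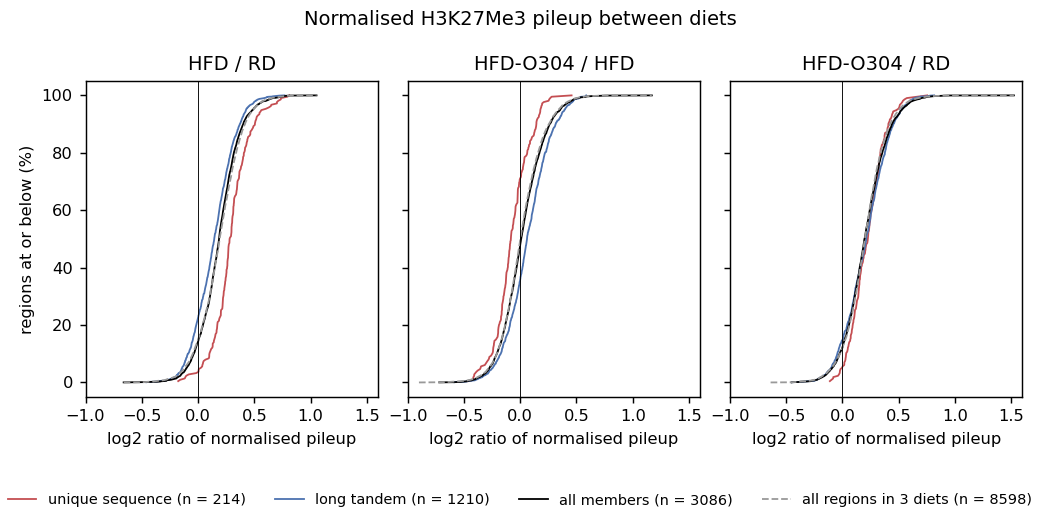
Log2 ratio of normalised H3K27Me3 pileup between 2 diets (x axis) against the share of regions at or below it (y axis, percent) for unique-sequence members, long tandem members, all members and all 8598 regions with a peak in the 3 diets. The unique-sequence curve lies to the right for HFD over RD (median ratio 1.22) and to the left for HFD-O304 over HFD (median ratio 0.94), and the curves run together for HFD-O304 over RD.

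Few members changed by 1.5 times or more. For HFD over RD 63 members were higher by that factor and 1 lower, where 1.88% and 0.0217% of all regions with a peak in both diets were past it. The 63 are 2.04% of the members. For HFD-O304 over HFD 14 (0.454%) were higher and 3 (0.0972%) lower, beside 0.277% and 0.259% of all such regions. For HFD-O304 over RD 93 (3.01%) were higher and 0 lower, beside 1.92% and 0.0184%. Short tandems supplied 29 of the 63 and 49 of the 93, although they were 17.6% of the members. Long tandems supplied 12 and 31, and unique-sequence members, 6.93% of the members, supplied 11 and 2. For HFD over RD 5.35% of short tandem and 5.14% of unique-sequence members were thus past the factor. For HFD-O304 over RD these shares were 9.04% and 0.935%. A ratio of at least 1.5 over RD in both HFD and HFD-O304 was found in 15 members, 11 of them short tandems.

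The most shifted members were tandems or masked sequence. The highest ratio of HFD over RD, 2.07, belonged to a short tandem of 414 bp on chromosome 8 with folds of 2.99, 5.78 and 4.55 (RD, HFD and HFD-O304), and the next, 1.99, to one on chromosome 12 with 3.01, 5.57 and 4.77. The lowest was 0.632, at a masked region with folds of 7.08, 4.29 and 6.18. Its nearest start site, of Reg3g, was 408 kb away. The next was 0.678, at a masked region of chromosome 18 with 12.9, 8.29 and 16.0. For HFD-O304 over HFD the highest ratio was 2.25, at a short tandem of 406 bp with folds of 4.63, 5.59 and 12.8. Its nearest start site, of Arid1b, was 368 kb away. The next, 1.89, was at the same region of chromosome 18. The lowest were 0.608, near Pank3, and 0.664, near Zic4. For HFD-O304 over RD the short tandem with Arid1b nearest had 2.88 and one in an intron of Fam198a 1.94. The lowest were 0.731, at a short tandem 17.8 kb from the start site of Npvf, and 0.733, at a long tandem. The latter lay 206 kb from the start site of Isl1 and had a HFD-O304 fold of 2.74, where the lowest listed was 2.69. With 1 list a diet, none of these has a replicate check.

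The AGAGGC tandems had higher median ratios over RD than the members as a whole. The 81 members with its 50-base word had median folds of 3.27, 3.92 and 4.23 (RD, HFD and HFD-O304), and median ratios of 1.24 for HFD over RD (quartiles 1.11 and 1.34, above 1 in 73 of 81) and 1.30 for HFD-O304 over RD (quartiles 1.16 and 1.44, above 1 in 77 of 81), where the medians over all members were 1.14 and 1.15. The word occurs 21524 times in the reference. Higher ratios over RD were not particular to this hexamer, since the 6 members built on AGG had medians of 1.31 and 1.41. Not every short tandem had them, as the 18 members built on AC had 1.14 and 1.11.

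Within the members the peaks of the diets overlapped but were not of equal extent. In 3077 members each diet had a single peak. The median width was 510, 498 and 642 bp (RD, HFD and HFD-O304), and HFD-O304 had the widest peak in 1623 members. The HFD-O304 list also held the most H3K27Me3 peaks, 22049 against 15517 in RD and 15438 in HFD. Widths of other regions were not set beside these, and whether the width went with the size of the list was not tested. Bases covered in all 3 diets made up a median of 52.7% of the joined length, and 71 members had no such base.

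The thresholds of the rule cut through similar regions. Just under 2000 bp were members of 1991 bp with Hoxa13 (12.1 kb) and Ghitm (367 kb) nearest and of 1997 bp in an intron of Slc24a4. Their lowest -log10 q values were 4.13, 3.03 and 2.51. Just over it were regions of 2000, 2003 and 2004 bp near Mef2d, Hoxb13 and Gm17304, with 4.50, 2.30 and 4.71. The members closest to a start site lay 1029, 1045 and 1118 bp from Rhcg, Iglon5 and Spink8, and regions just inside the window lay 928, 949 and 949 bp from Btnl9, Olfr172 and G530012D18Rik.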

How the data were processed

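Chromatin immunoprecipitation and sequencing (ChIP-seq) was done by the authors on islets with antibodies to H3K27Ac and H3K27Me3. Paired-end reads were mapped to GRCm38 with Bowtie2, the alignments of 2 replicates were merged and broad peaks were called with MACS 2.1.2. Per the file headers the q cutoff was 0.01, duplicates were removed, the genome size was set to 1.87e+09, and neither a control nor a local background entered the call. A filter on mapping quality is not given in the sources used here. The 3 input samples were not analysed here. The headers give 83773042 to 95218072 kept fragments for H3K27Ac and 54166902 to 74870300 for H3K27Me3, with 45.7% to 56.9% of the H3K27Me3 fragments removed as duplicates. Depth sets the lowest fold a list can hold.

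For each peak the deposited signal is the pileup (fragments per base). The authors' fold enrichment is the ratio of pileup plus 1 to a uniform background plus 1, and the deposited -log10 q comes from MACS. The 6 columns of -log10 p were not used. Here the pileup of a region was the mean over its peaks, weighted by length, per kept fragment. Start sites and genes were taken from GENCODE release M21, regions were placed by their midpoint, and masked bases were the lower-case bases of the GRCm38.p6 reference. The words of 50 bases, the read length, were counted over 65 reference sequences. Fragments of about 220 bp reach beyond a word, so uniqueness of pairs is understated. A tandem needed at least 40 recurring words of 14 bases at 1 spacing. The counting of words and the member rule were tested on simulated data. Python 3.11.15 with numpy, pandas and scipy was used.

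The members and the 10 gene lists were chosen with earlier results of these data known, and list counts have no test. The rule named the 10 strongest members by the lowest of 3 -log10 q values (5 of these, and some gene names, are not reported here), the 10 strongest of the unique-sequence group, the 2 highest and 2 lowest ratios of each pair of diets, 3 regions either side of each threshold, and up to 4 members a gene list. The printed tandem units and shared words were chosen after their values were seen, and no sequence of chromosome 18 is printed. Alternatives were the overlap and gap for joining, stricter limits on peaks, lists of equal size, other length, start site and H3K27Ac limits, other repeat cutoffs and other measures of pileup.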

Additional observations from a re-analysis of the deposited data

How the results depend on the processing

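No paired analysis was possible because each list came from alignments pooled over both replicates, and none could be left out. The 59 values recomputed kept within the stated limits in 26 cases (1.5 times for a count, the 95% interval for a share, a difference of shares or a median ratio) and moved past them in 33, 2 of which turned direction. Cause was not tested beyond the removal of peaks by a stricter limit. A -log10 q of at least 5 left 594 members, of which 89.9% were mostly masked, 72.7% intergenic and 89.9% of low uniqueness, with median ratios of 1.03 for HFD-O304 over HFD and 1.18 for HFD-O304 over RD. The length limit of 1000 bp gave 1991 members (86.8% masked), that of 5000 bp 80.6% masked, and H3K27Ac peaks with a -log10 q of at least 5 gave 4898 members. At a common lowest fold 86.7% were masked and 90.4% of low uniqueness, and the ratios were 1.11 (HFD over RD), 1.02 (HFD-O304 over HFD) and 1.13 (HFD-O304 over RD). Lists of equal size gave ratios of 1.03 for HFD-O304 over HFD and 1.17 for HFD-O304 over RD. With a limit of 80% the masked share was 79.8%, and with genes of any type the intergenic share was 65.9%. Sums of pileup times length gave ratios of 1.11, 1.21 and 1.35 in the order HFD over RD, HFD-O304 over HFD and HFD-O304 over RD, and the authors' fold gave 1.08, 1.03 and 1.12. Members with under 50% masked bases gave 1.19, 0.971 and 1.15, and unique-sequence members, an alternative chosen after seeing the data, 1.22, 0.944 and 1.17, so that HFD-O304 over HFD turned below 1 in both. At least 20 or 80 recurring words, also chosen after seeing the data, gave 1291 and 978 long tandem members. The long tandem share of members minus that of regions in 1 diet only, 37.9 points, was 37.7 for regions of at least 250 bp, 40.8 for at least 500 bp and 19.1 for at least 1000 bp, limits likewise chosen after seeing the data.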
